A study of Homo sapiens with 8 samples.

Results

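Aminoacyl-tRNA synthetases are the enzymes that join each amino acid to its transfer RNA (tRNA), and their mRNAs were followed here in a human leukemia line in which SIRT1 was knocked down. The genes were chosen by symbol, with earlier results of these data known. They are 20 that supply the cytosol (AARS, CARS, DARS, EPRS, FARSA, FARSB, GARS, HARS, IARS, KARS, LARS, MARS, NARS, QARS, RARS, SARS, TARS, VARS, WARS and YARS) and 16 that supply mitochondria (AARS2, CARS2, EARS2, FARS2, HARS2, IARS2, LARS2, MARS2, NARS2, PARS2, RARS2, SARS2, TARS2, VARS2, WARS2 and YARS2). All 36 were found among the 18133 rows of the expression table, and all 36 passed the filter on low values, a mean of at least 10 normalized counts over the 8 libraries, which left 13885 genes. The cells were DND41, an established line of T-cell acute lymphoblastic leukemia. All groups received doxycycline for 72 h, which switched on a short hairpin RNA. In 3 libraries the hairpin was the SIRT1 construct sh1, in 3 it was the SIRT1 construct sh3, and in 2 (A and C) it was a control hairpin, here called control. The labels do not explain the numbers of the constructs, and control B was not analysed here. Wells were plated in triplicate with no mention of separate infections, so the p-values rest on the spread of these cultures alone, and this may be technical.

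Each synthetase recognises 1 amino acid and the tRNAs that carry it, except that EPRS holds a glutamyl and a prolyl enzyme in a single chain and that phenylalanyl-tRNA synthetase of the cytosol is built from the subunits FARSA and FARSB. The mitochondrial enzymes are encoded in the nucleus, mostly by separate genes, and charge the tRNAs that serve the few proteins made inside the organelle. GARS and KARS supply both compartments from a single gene and are counted here as cytosolic. Many cytosolic synthetase genes are known targets of ATF4, the transcription factor of the amino acid and integrated stress responses. SIRT1 is a nuclear NAD-dependent protein deacetylase.

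SIRT1 mRNA, the target of both constructs, measured 1259, 1312 and 1328 normalized counts in sh1 A, B and C, 1099, 1217 and 1179 in sh3 A, B and C, and 1745 and 1920 in control A and C. Every knockdown library lay below both controls. The mean level fell by 29.1% in sh1 and fell by 36.4% in sh3, and the log2 change for the mean of the constructs was -0.57 ± 0.063 (SE; adjusted p = 0.00030, limma). Here and throughout, changes are on the log2(normalized count + 1) scale, and adjusted p-values come from 1 limma fit over all 13885 genes with Benjamini-Hochberg adjustment. A gene was called at an adjusted p under 0.05. Library totals ran from 33087820 to 34072666 normalized counts. The title and genotype of sh3 C place it with SIRT1 knockdown while its description names the control hairpin. It was kept with sh3. Its Spearman correlation across genes was at least 0.987 with the other sh3 libraries and at most 0.986 with the controls. Of 14 markers of the T-ALL line, 12 were in the table and 11 had a mean of at least 10, and their summed level was 148236 to 154163 in knockdown libraries against 157833 to 158109 in controls. Of 6 myeloid markers only CD68 had a mean of at least 10, with list sums of 199 to 300, and none of the erythroid markers had. The B-lineage genes CD79A and CD79B were expressed. The part of the shift in T-ALL markers in the results was not tested, and in bulk RNA fewer cells of a type and less RNA per cell cannot be told apart.

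The cytosolic enzymes were the more abundant class. Divided by the length of the principal transcript (GENCODE 29), their median level in controls was 2324 normalized counts per kb, from 1009 for VARS to 4466 for GARS. The median of the mitochondrial enzymes was 445 per kb, from 15.6 for VARS2 to 1569 for IARS2. On the same per-kb scale GARS stood first at 4466 ± 273 (SD, n = 2), followed by MARS at 4442 ± 210, SARS at 4330 ± 121, NARS at 4219 ± 215 and KARS at 4132 ± 210. Adjacent genes in this order did not differ beyond their spread. IARS2, the mitochondrial isoleucyl enzyme, was the only mitochondrial gene above any cytosolic one. When the enzymes for 1 amino acid were set against each other, giving 17 pairs over 16 amino acids, the cytosolic gene was the higher per kb in 17 of 17, by 1.51-fold for IARS over IARS2, 6.63-fold at the median and 64.7-fold for VARS over VARS2. VARS2 itself had few counts, 43.0 to 68.7 per library, so that its changes are poorly measured.

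**Figure D1:**
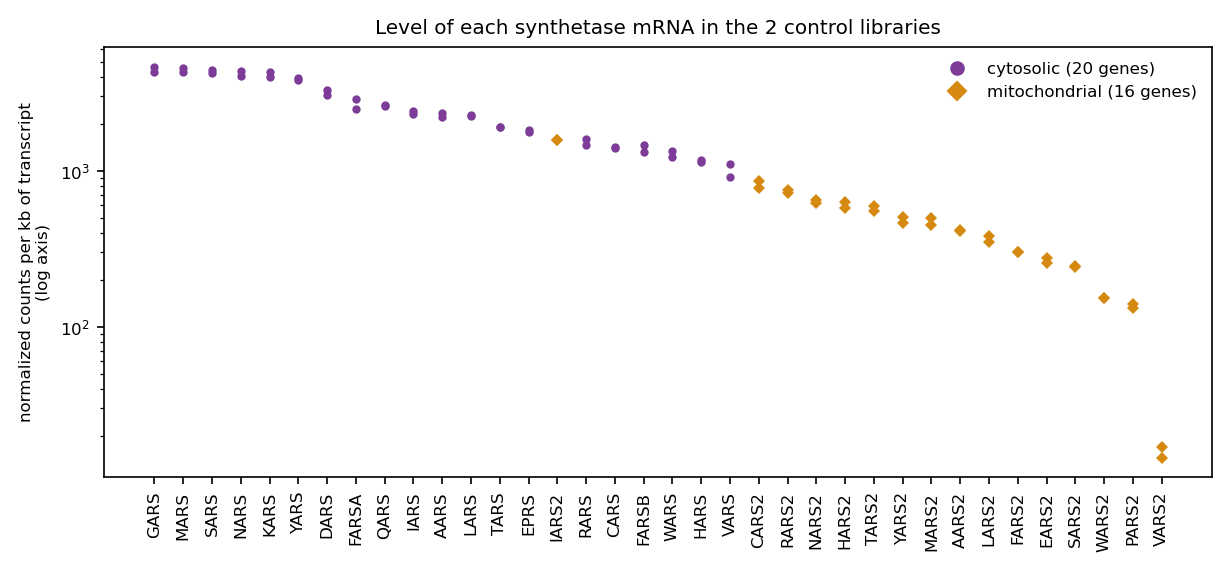
Level of each synthetase mRNA per kb of its principal transcript (log axis) in the 2 control libraries, 1 point per library, genes ordered by their mean. Apart from IARS2 at 1569 per kb, every mitochondrial gene lies below VARS, the lowest cytosolic gene at 1009.

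The promoters were examined for sequence that the choice of genes did not use. RefSeq promoter windows (GRCh38.p14, 250 bases before to 50 after a start site) were found for 16 of 20 cytosolic genes and 14 of 16 mitochondrial ones. They were searched on both strands for TGATGCAA, the core of the C/EBP-ATF response element that ATF4 heterodimers bind, and for its looser form TGATGNAA, of which the first is a subset. The strict motif occurred in AARS, CARS, IARS, MARS, NARS and TARS, 6 of 16 cytosolic genes, and in 0 of 14 mitochondrial genes, against 0.866% of all 35116 windows and 1.08% of all 27305 genes. The looser form added GARS and YARS2. It occurred in 7 of 16 cytosolic and 1 of 14 mitochondrial genes, against 3.62% of windows and 4.46% of genes. Among protein-coding genes alone the shares were 0.903% for the strict and 3.6% for the looser form. The stretches of 30 bases that hold the motif are shown for the sequence around it, since the search itself fixed the core. They are written 5′ to 3′ on the strand of the gene, with the motif in capitals, which reads TTGCATCA where it lies on the opposite strand.
AARS: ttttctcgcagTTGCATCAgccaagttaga
CARS: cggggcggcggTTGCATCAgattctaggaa
GARS: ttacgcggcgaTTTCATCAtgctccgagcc
IARS: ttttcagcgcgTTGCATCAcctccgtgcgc
MARS: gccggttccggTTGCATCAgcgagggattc
NARS: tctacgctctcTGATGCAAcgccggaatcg
TARS: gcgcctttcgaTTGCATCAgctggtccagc
YARS2: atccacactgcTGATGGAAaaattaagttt

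The stretch of AARS lies at chr16:70289675-70289704 (minus strand), with the motif 187 bases before the start. In CARS (chr11:3057407-3057436, minus) the motif begins 2 bases before a start site and runs across it. That of IARS (chr9:92293692-92293721, minus) begins 13 bases before the start. In MARS (chr12:57488053-57488082, plus) the motif begins 4 bases before the start and likewise runs across it. That of GARS (chr7:30594834-30594863, plus) begins 33 bases before a start site. In NARS (chr18:57621804-57621833, minus) and TARS (chr5:33440956-33440985, plus) the motif begins 14 and 2 bases after a start, wholly inside the transcribed region. That of YARS2 is at chr12:32756076-32756105 (minus), 197 bases before the start. Among the 7 cytosolic genes, all but AARS have the motif within 33 bases of a start. The E-box CACGTG, a site for MYC with MAX, occurred in IARS, CARS2, EARS2 and MARS2, that is 1 of 16 and 3 of 14 genes against 8.77% of all genes. Its share among protein-coding genes alone was 10.9%. A match is a description of these letters and does not show that a factor binds.

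With SIRT1 knocked down, GARS and NARS were called lower with each construct. Other cytosolic enzymes were called lower for the mean of the constructs or with sh1, but not with sh3, and few mitochondrial genes were called. For the mean of the constructs against control, 5 of 20 cytosolic genes were called lower (CARS, GARS, MARS, NARS and WARS) and 1 higher (DARS), where 6.19% of all genes tested were called lower and 6.55% higher. The median change of the class was -0.11, with 15 negative and 5 positive values, against a median of -0.0022 over all genes tested. Of the 16 mitochondrial genes 0 were called lower and 1, WARS2, higher, with a median of 0.034, 6 negative and 10 positive values. A count of 1 in 16 is near the 6.55% of all genes called higher. All 6 knockdown libraries lay below both controls for 6 cytosolic genes (CARS, GARS, HARS, MARS, NARS and TARS) and 1 mitochondrial gene (RARS2), and above both for 0 cytosolic and 2 mitochondrial genes (SARS2 and WARS2), where this held for 11.4% of all genes tested in the lower and 11.9% in the higher direction. Both controls weigh on these counts. Without control C, 1 cytosolic gene (GARS) was called lower, the cytosolic median was -0.070, the mitochondrial median was -0.0042, and 339 genes in place of 1768 were called over the whole table. Without control A, 4 cytosolic genes were called lower and 933 genes over the whole table. Calls were lost without control C whether the estimate shrank, as for WARS (-0.17), or did not, as for CARS (-0.18) and DARS (0.25). Without the trend in the variance prior the calls of CARS, MARS, NARS, WARS and DARS were lost, with adjusted p from 0.071 to 0.095. WARS2 was not called for the mean of the constructs when either control was left out.

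GARS, the glycyl enzyme of both compartments (chr7:30594681-30634033, plus strand), fell the most of the cytosolic class. It measured 8616, 8630 and 9127 normalized counts in sh1, 10137, 9802 and 10133 in sh3, and 11255 and 12272 in the controls. The 3 groups did not overlap, with sh1 the lowest and sh3 between sh1 and control. The change was -0.32 ± 0.045 (adjusted p = 0.0015, limma), and against the control mean GARS fell by 25.3% in sh1 and fell by 14.8% in sh3. GARS was the only cytosolic gene called under all 17 alternative settings of this comparison, with adjusted p from 0.0011 to 0.040.

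NARS, the asparaginyl enzyme (chr18:57600656-57622213, minus strand), was lower to a like degree with both constructs. It measured 10669, 11646 and 10664 in sh1, 11532, 10768 and 11461 in sh3, and 12605 and 13545 in the controls. The sh1 and sh3 libraries overlapped each other and all 6 lay below the controls, with a change of -0.23 ± 0.050 (adjusted p = 0.013, limma). CARS, the cysteinyl enzyme (chr11:3000922-3057613, minus strand), measured 3173, 3343 and 3248 in sh1, 3535, 3388 and 3434 in sh3, and 3809 and 3738 in the controls. All 6 knockdown values were below both controls, and the change was -0.17 ± 0.044 (adjusted p = 0.027, limma). Of the fits that left out a library, the CARS call was lost without control A, control C or sh3 B, with an adjusted p of 0.018 to 0.15 over its alternatives, and the NARS call was lost without control C (0.010 to 0.17).

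MARS, the methionyl enzyme (chr12:57475445-57517569, plus strand), measured 10440, 10905 and 10075 in sh1, 11584, 12194 and 12300 in sh3, and 12472 and 13335 in the controls. The groups did not overlap, although the highest sh3 library came close to control A, and the change was -0.20 ± 0.046 (adjusted p = 0.017, limma). MARS overlaps DDIT3 by 982 bases and ARHGAP9 by 13370 bases on the opposite strand, and the sources used here do not say whether counting was by strand. DDIT3, a stress-induced transcription factor, was called higher with sh3 (log2 change 0.43, adjusted p = 0.0043, limma) and was at 0.01 with sh1 (adjusted p = 0.95). WARS, the tryptophanyl enzyme that is also induced by interferon (chr14:100333788-100376805, minus strand), measured 3124, 3125 and 3103 in sh1, 3580, 3364 and 3939 in sh3, and 3788 and 4143 in the controls. The sh1 libraries were well below the rest, while sh3 C lay between the controls, and the change was -0.24 ± 0.061 (adjusted p = 0.026, limma). WARS overlaps WDR25 by 388 bases on the opposite strand. Of the fits that left out a library, the MARS call was lost without control C, and that of WARS without control C or sh3 A.

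DARS, the aspartyl enzyme (chr2:135906677-135986100, minus strand), was the only cytosolic gene called in the other direction. It measured 8149, 8106 and 7718 in sh1, 9574, 9453 and 8853 in sh3, and 7244 and 7798 in the controls. The sh3 libraries were above all others, and the sh1 libraries overlapped the controls. The change was 0.20 ± 0.048 (adjusted p = 0.021, limma), and among fits that left out a library the call was lost without either control.

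WARS2, the mitochondrial tryptophanyl enzyme (chr1:119031216-119140671, minus strand), moved against its cytosolic counterpart. It measured 514, 464 and 481 normalized counts in sh1, 632, 643 and 643 in sh3, and 427 and 429 in the controls. All 6 knockdown libraries were above both controls and the sh3 libraries were above those of sh1. The change was 0.38 ± 0.074 (adjusted p = 0.0080, limma), with an increase of 13.7% in the sh1 mean and 49.4% in the sh3 mean. With sh3 alone WARS2 was called under all 18 alternatives, with adjusted p from 0.00065 to 0.012.

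Among the mitochondrial genes that were not called, RARS2, the arginyl enzyme, measured 1092, 1136 and 1262 in sh1, 1166, 1082 and 1177 in sh3, and 1372 and 1302 in the controls. All 6 knockdown values were the lower, and the change of -0.22 had an adjusted p of 0.063 (limma). VARS2 had the most negative estimate, -0.22, with a 95% interval of -0.69 to 0.24. IARS2, the most abundant, was at 0.03 with a 95% interval of -0.06 to 0.11. The 12 other mitochondrial genes that were not called ranged from -0.09 for MARS2 to 0.15 for FARS2. Among cytosolic genes that were not called, HARS (-0.15, adjusted p = 0.058) and TARS (-0.10, adjusted p = 0.16) had all 6 knockdown libraries below both controls, and VARS was at -0.18 (adjusted p = 0.17). HARS and HARS2, the histidyl enzymes, lie head to head on opposite strands of chromosome 5, with RefSeq starts 85 bases apart and gene models that overlap by 437 bases. HARS2 was at 0.06 (adjusted p = 0.60). LARS was at -0.16 (adjusted p = 0.063), SARS at -0.12 (adjusted p = 0.068), IARS at -0.12 (adjusted p = 0.062), YARS at -0.04 (adjusted p = 0.58) and AARS at 0.11 (adjusted p = 0.10), none of them called for the mean of the constructs. The other 6 cytosolic genes, EPRS, FARSA, FARSB, KARS, QARS and RARS, ranged from -0.06 to 0.07 and were called in no comparison.

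**Figure D2:**
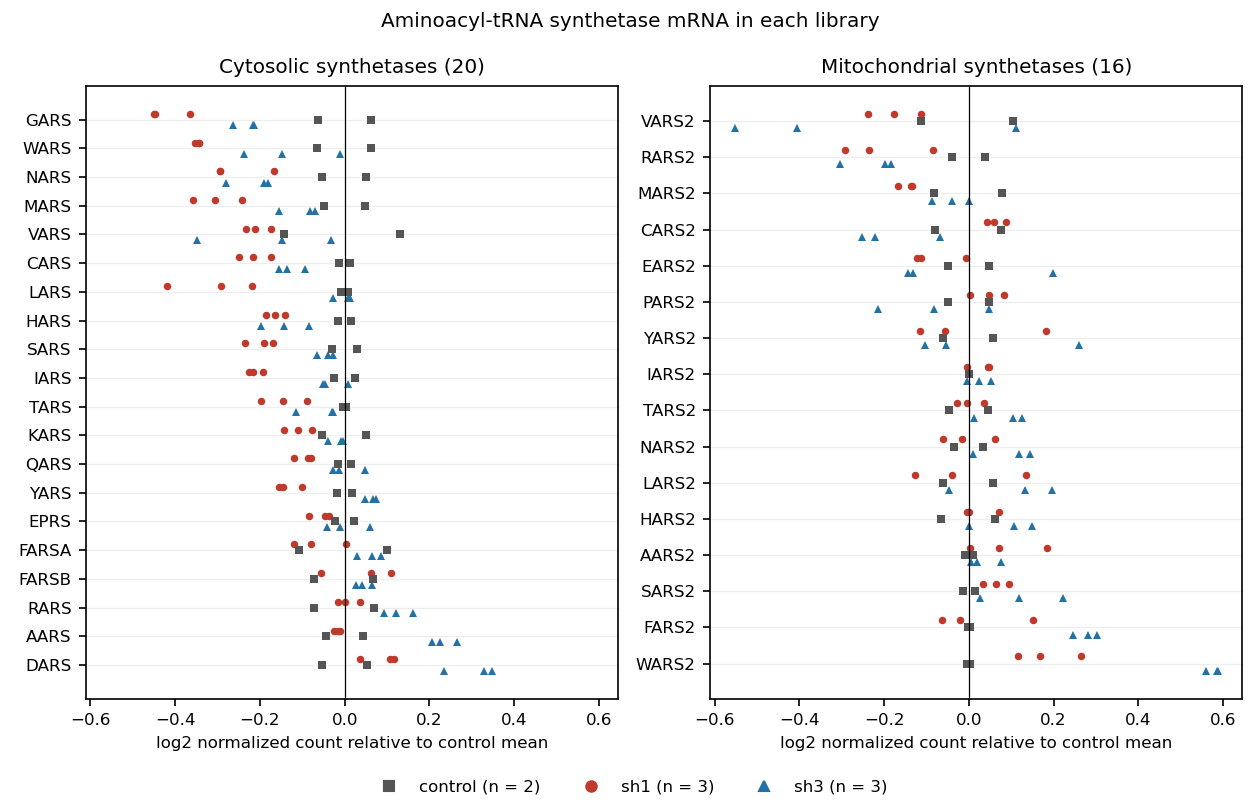
Log2 normalized count of each synthetase in each library relative to the control mean (x axis), for the 20 cytosolic and 16 mitochondrial genes, with 1 symbol per library. The sh1 libraries lie to the left of both controls for 15 of 20 cytosolic genes, while the points of most mitochondrial genes straddle the control mean.

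Set within amino acids, the cytosolic gene had the more negative change in 13 of 17 pairs, with a median difference of -0.11 between cytosolic and mitochondrial change. The tryptophan pair differed most, by -0.62 ± 0.078 (SE), so that the ratio of WARS to WARS2 normalized counts was 9.25 ± 0.556 (SD, n = 2) in controls, 6.41 ± 0.331 (n = 3) in sh1 and 5.67 ± 0.450 (n = 3) in sh3. Next came asparagine (-0.28 ± 0.075), serine (-0.21 ± 0.042) and histidine (-0.21 ± 0.077). Arginine stood at the other end at 0.28 ± 0.074, since RARS was at 0.07 and RARS2 at -0.22. The pairs share their libraries, and no test over pairs was made.

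**Figure D3:**
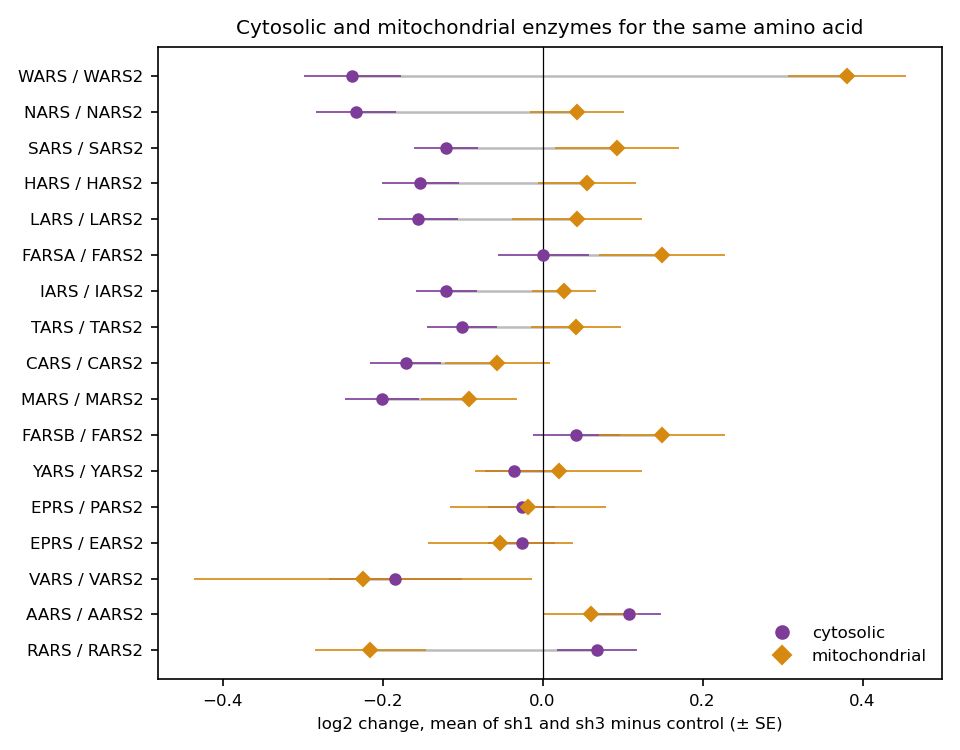
Log2 change of the cytosolic (circle) and mitochondrial (diamond) enzyme for the same amino acid, mean of sh1 and sh3 minus control, with SE bars, ordered by their difference. The cytosolic change lies to the left in 13 of 17 pairs, from -0.62 for WARS against WARS2 to 0.28 for RARS against RARS2.

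Grouped by assembly, catalytic fold and promoter, the cytosolic genes gave the following counts, none of which was tested between groups. The multisynthetase complex is a particle that gathers several cytosolic synthetases on the scaffold proteins AIMP1, AIMP2 and EEF1E1. Of its 8 synthetase genes 1 was called lower (MARS) and 1 higher (DARS), with a median of -0.055, against 4 lower and 0 higher of the other 12, with a median of -0.14. Over all genes tested 6.19% were called lower and 6.55% higher, which for groups of this size is less than 1 gene in each direction. The scaffold genes were not called (AIMP1 0.13, AIMP2 -0.01, EEF1E1 -0.13). By the fold of the catalytic domain, 3 of 9 class I genes were called lower (median -0.16), and 2 of 10 class II genes lower and 1 higher (median -0.08). EPRS, which holds a domain of each class, was left out of that count. By promoter, the 7 cytosolic genes with TGATGNAA had 4 called lower (CARS, GARS, MARS and NARS) and a median of -0.17, ranging from -0.32 for GARS to 0.11 for AARS. The 9 with a window but no match had 1 called lower (WARS) and a median of -0.046. With the strict TGATGCAA the split was weaker. It gave 3 of 6 called lower (median -0.15) against 2 of 10 without it (median -0.055), GARS being among the latter. DARS, the gene called higher, had no window, nor had LARS, VARS and YARS, and they are in neither group.

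The separate constructs gave different pictures of the cytosolic class. Both are compared with the same 2 controls, so the results are set side by side. With sh1, 8 of 20 cytosolic genes were called lower (CARS, GARS, IARS, LARS, MARS, NARS, SARS and WARS) and 0 higher, with a median of -0.15, where 3.43% of all genes were called lower and 2.88% higher. All 3 sh1 libraries lay below both controls for 15 cytosolic genes and above both for 0, where 18.9% and 19.3% of all genes did. With sh3, 2 were called lower (GARS and NARS) and 2 higher (AARS and DARS), with a median of -0.023, where 9.19% and 9.36% of all genes were called. The sh3 libraries were below both controls for 6 cytosolic genes and above both for 4, against 25.1% and 24.8% of all genes. These cytosolic counts with sh3, of calls and of libraries beyond the controls, are near the shares over all genes. GARS and NARS were the genes called lower with each construct. The sh1 libraries of mitochondrial genes were below both controls for 2 and above both for 2, and those of sh3 for 1 and 3. Of mitochondrial genes 0 were called with sh1 (median 0.014) and 2, WARS2 and FARS2, were higher with sh3 (median 0.035). FARS2, the mitochondrial phenylalanyl enzyme, was at 0.28 with an adjusted p of 0.050 (limma), just under the threshold before rounding, and this call was lost under 11 of 18 alternatives. The AARS call with sh3 was lost without control C. The count of 8 with sh1 fell to 3 without control A, 1 without control C and 5 without sh1 B. That of 2 with sh3 fell to 0 without control C and 1 without sh3 B.

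Summed over the 20 cytosolic genes, the level was 156299 ± 4799 normalized counts (SD, n = 2) in controls, 138964 ± 1894 (n = 3) in sh1 and 153942 ± 1493 (n = 3) in sh3. The sh1 mean differed from the control mean by -11.1%. Its 3 libraries lay below all others, at 0.411% to 0.420% of the library against 0.455% to 0.470% in sh3 and control. The sh3 mean differed by -1.51%, and its libraries overlapped the controls. The 16 mitochondrial genes summed to 21806 ± 19.7 in controls, 21838 ± 167 in sh1 and 22289 ± 100 in sh3. These means differ from control by 0.147% and 2.22%.

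**Figure D4:**
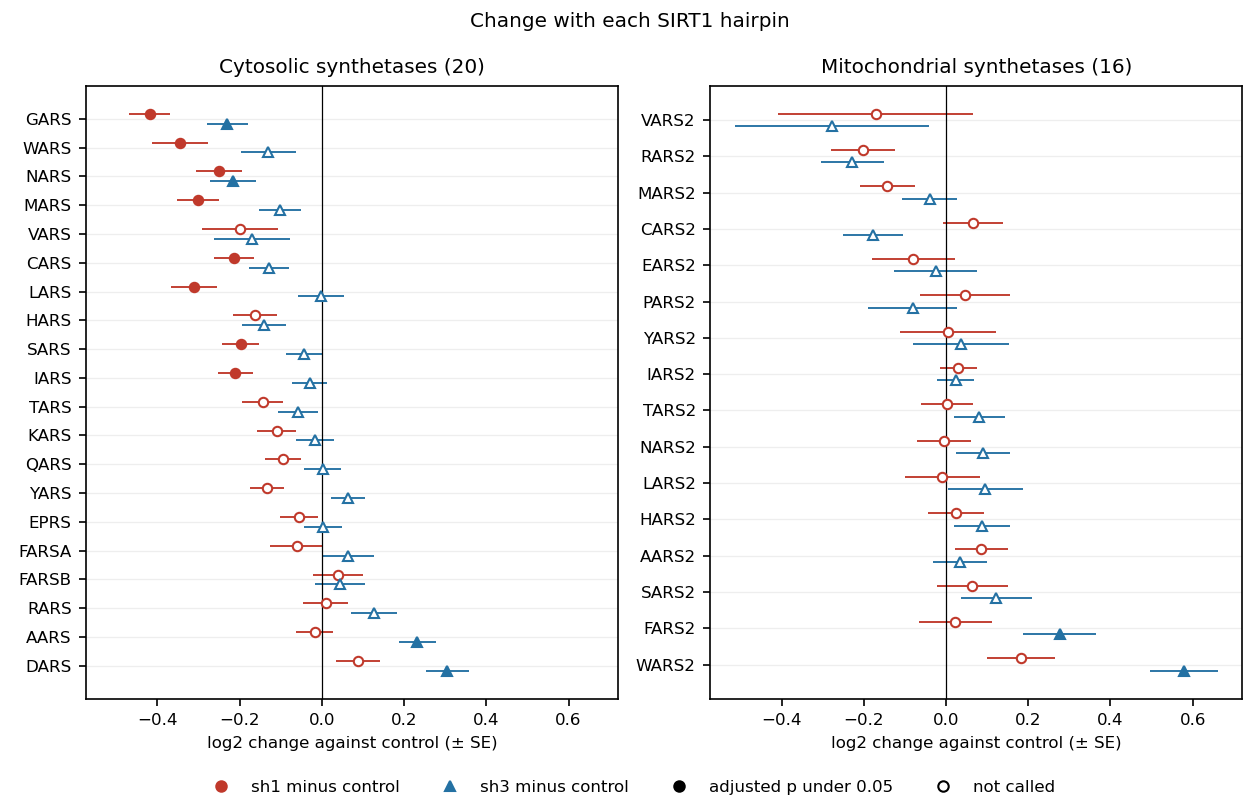
Log2 change of each synthetase with sh1 (circle) and with sh3 (triangle) against the same 2 controls, with SE bars, filled where called at an adjusted p under 0.05. The sh1 estimate lies to the left of the sh3 estimate for all 20 cytosolic genes.

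The difference between the constructs was tested directly as sh1 minus sh3, an estimate that does not use the control values. All 20 cytosolic genes had negative estimates, with a median of -0.12 against -0.0015 over all genes tested, and 9 were called lower in sh1 (AARS, DARS, GARS, IARS, LARS, MARS, SARS, WARS and YARS) and 0 higher, where 5.83% of all genes were called lower and 5.61% higher. The sh1 and sh3 libraries did not overlap for 14 cytosolic genes, all lower in sh1, where 15.2% of all genes were lower and 15.2% higher in that way. Of the mitochondrial genes, 1 was called lower in sh1 (WARS2) and 1 higher (CARS2), with a median of -0.056. SIRT1 itself was at 0.16 in this contrast (adjusted p = 0.14, limma), and its 3 sh1 libraries lay above its 3 sh3 libraries. The count of 9 was 5 without sh1 B, sh3 A or sh3 C.

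LARS, the leucyl enzyme that also senses leucine for mTORC1, showed the largest cytosolic difference between constructs. It measured 8830, 9280 and 8082 normalized counts in sh1, 10898, 10605 and 10865 in sh3, and 10750 and 10865 in the controls. The sh1 libraries were well below a shared level of sh3 and control: sh1 minus sh3 was -0.31 ± 0.050 (adjusted p = 0.0023, limma), while the 95% interval of sh3 minus control was -0.13 to 0.12. AARS, the alanyl enzyme, measured 7805, 7880 and 7854 in sh1, 9544, 9160 and 9279 in sh3, and 8187 and 7698 in the controls. Here the sh3 libraries stood above the rest, with a difference of -0.25 ± 0.040 between constructs (adjusted p = 0.0022, limma) and a 95% interval of -0.12 to 0.08 for sh1 minus control. In DARS the sh3 libraries were likewise above all others, with a difference of -0.22 between constructs (adjusted p = 0.013, limma).

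IARS, the isoleucyl enzyme, measured 9633, 9413 and 9475 in sh1, 10612, 10660 and 11066 in sh3, and 11195 and 10812 in the controls. SARS, the seryl enzyme, measured 6816, 7131 and 7028 in sh1, 7668, 7804 and 7865 in sh3, and 7861 and 8179 in the controls. In both genes all sh1 libraries were below all others and sh3 reached into the control range, with differences between constructs of -0.18 ± 0.038 for IARS (adjusted p = 0.011, limma) and -0.15 ± 0.040 for SARS (adjusted p = 0.028). YARS, the tyrosyl enzyme, measured 11335, 11694 and 11268 in sh1, 13198, 13120 and 12952 in sh3, and 12374 and 12698 in the controls. Its 3 groups did not overlap and the controls lay between the constructs, with a difference of -0.20 ± 0.037 (adjusted p = 0.0059, limma) although neither construct was called against control. The constructs also differed for GARS (-0.19, adjusted p = 0.020), MARS (-0.20, adjusted p = 0.017) and WARS (-0.22, adjusted p = 0.041). CARS, HARS, NARS and TARS were not called between constructs, with estimates of -0.09, -0.02, -0.03 and -0.09.

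Among mitochondrial genes, CARS2, the cysteinyl enzyme, measured 1637, 1585 and 1605 in sh1, 1321, 1293 and 1470 in sh3, and 1456 and 1624 in the controls. The sh1 libraries were above all sh3 libraries and the controls reached from one to the other, with a difference of 0.24 ± 0.066 (adjusted p = 0.034, limma). WARS2 differed by -0.40 ± 0.074 (adjusted p = 0.0056). AARS, LARS, YARS and WARS2 were called between constructs under all 18 alternatives. The SARS call was lost without any 1 of the 6 knockdown libraries, the WARS call without any of them except sh3 B, and the CARS2 call without any except sh3 C. The GARS call was lost without sh1 B, sh3 A or sh3 C, the MARS call without sh1 C, sh3 B or sh3 C, the DARS call without sh3 A or sh3 B, and the IARS call without sh1 B.

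Other genes of the pathway were read from lists by function. ATF4 mRNA measured 24628, 25934 and 27005 in sh1, 25286, 25258 and 26483 in sh3, and 29150 and 31348 in the controls. It was lower in all 6 knockdown libraries, by -0.23 ± 0.047 (adjusted p = 0.0093, limma), and the constructs were alike at -0.23 and -0.24, with a difference of 0.01 (adjusted p = 0.93). Of 31 tested ATF4 targets other than synthetases, DDIT3 included, 18 were called lower and 1 higher for the mean of the constructs, with a median of -0.22. They included the amino acid transporters SLC7A5 (-0.70, adjusted p = 0.00011), SLC1A5 (-0.51, adjusted p = 0.00011) and SLC3A2 (-0.45, adjusted p = 0.00011), and the single rise was DDIT4 (0.46, adjusted p = 0.015). The shares over all genes were 6.19% lower and 6.55% higher. With sh1 18 were called lower and 0 higher (median -0.37), where 3.43% and 2.88% of all genes were called. With sh3 12 were called lower and 4 higher (median -0.083), against 9.19% and 9.36% of all genes, and the 4 higher are near that share. Between constructs 11 were called lower in sh1, against 5.83% of all genes. EIF2AK4, the kinase that senses uncharged tRNA, was at -0.28 (adjusted p = 0.047), a call lost under 10 of 17 alternatives, among them leaving out control C. MYC was at -0.37 (adjusted p = 0.0093), and DDIT3 at 0.22 (adjusted p = 0.064). The ATF4 and MYC calls were lost without control C. Of 16 sensors and regulators of the integrated stress response, ATF4 included, 2 were called lower and 3 higher, among the latter PPP1R15A (0.32) and EIF2B3 (0.28).

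Other parts of the translation apparatus were read against the same shares, 6.19% of all genes called lower and 6.55% higher for the mean of the constructs, and their counts lay near or below them. Of 8 further synthetase-like and editing genes 0 were called, and likewise 0 of the 3 subunits of the mitochondrial glutaminyl-tRNA amidotransferase and 0 of 13 genes of cytosolic elongation, termination and recycling, a list that also holds EEF2K and diphthamide enzymes. The median of these 13 was -0.10, and 6 of them had all knockdown libraries below both controls, against 11.4% of all genes. Of 17 mitochondrial translation factors TUFM, the elongation factor, was called lower (-0.18, adjusted p = 0.023, limma). Among 77 mitochondrial ribosomal proteins 2 were called lower, MRPS6 (-0.31) and MRPS34 (-0.23), and 3 higher, led by MRPS30 (0.28). Of 44 genes of tRNA transcription and processing, 3 were called lower, among them PUS1, a pseudouridine synthase (-0.27), and XPOT, which exports tRNA from the nucleus and is also on the list of ATF4 targets (-0.17). RTCB, the tRNA ligase, was called higher (0.18).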

How the data were processed

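Strand-specific RNA-seq libraries of DND41 cells were grouped by their titles. The authors deposited 1 signal value per gene symbol and library, a normalized count. Tools named in the submitters' processing notes are kallisto 0.44.0 and DESeq, with the build hg38, and how transcripts were annotated, filtered or summed to genes is not given in the sources used. Of the nonzero values of a library, 0.130% to 0.300% came within 0.001 of a whole number, so whole reads were not recovered, a test for counts was not used, and no counting intervals are given.

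Rows with a mean under 10 (4248) were removed and the other 13885 analysed as log2(value + 1), a scale that understates the change of low genes. A limma 3.58.1 model (R 4.3.3, empirical Bayes with trend, two-sided, Benjamini-Hochberg over all genes tested) held 3 group means over the 8 libraries and had 5 residual degrees of freedom. The procedure was tested on simulated data. Alternatives changed the pseudocount, the filter, the scaling, the variance prior, the samples fitted and the use of a block. The members and gene lists were chosen with earlier results of these data known.

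Library values are given for members called for the mean of the constructs or between constructs and for the largest change per class and comparison, and of each other list the 3 called genes with the smallest p, plus ATF4, DDIT3, MYC and EIF2AK4. AIMP1, AIMP2, EEF1E1, SIRT1 and genes named only by count or range were added for description. Some genes that the rule or a list took are not reported here by name, and counts include them. Coordinates and lengths come from GENCODE 29 on GRCh38. Promoters were matched by symbol, or by the symbol followed by 1. None was matched for DARS, LARS, VARS, YARS, AARS2 and VARS2.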

Additional observations from a re-analysis of the deposited data

Results flagged for a closer look

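For 11 synthetases the effects of the SIRT1 constructs differed by a direct test, sh1 minus sh3, in limma at an adjusted p under 0.05. The log2 difference was -0.31 for LARS, -0.25 for AARS, -0.22 for DARS, -0.22 for WARS, -0.20 for MARS, -0.20 for YARS, -0.19 for GARS, -0.18 for IARS and -0.15 for SARS, all lower with sh1. Of the mitochondrial genes it was -0.40 for WARS2 and 0.24 for CARS2, the only one of the 11 that was higher with sh1. SIRT1 mRNA was at 0.16 in this contrast (adjusted p = 0.14, 95% interval 0.02 to 0.30 before adjustment), with all 3 sh1 libraries above all 3 sh3 libraries, and its part in the differences was not tested.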

How the results depend on the processing

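No called synthetase changed direction under any alternative that was run. Without the trend in the variance prior the cytosolic count fell from 5 to 1 lower for the mean of the constructs, from 8 to 1 with sh1, from 2 to 0 with sh3 and from 9 to 3 between constructs, and the mitochondrial counts fell from 2 to 1 with sh3 and between constructs. The 2 mitochondrial calls with sh3 were 1 with a pseudocount of 5, with no filter and with a robust prior. Fitting only sh1 and control gave 4 cytosolic genes lower with sh1, and the mean of the constructs has no such fit because it already holds all groups. Rescaling the libraries to equal medians of ratios changed none of 36 single calls. The letters A to C gave no sign of pairing the libraries (same-letter correlations of -0.062 to 0.058 after group means were removed). With so few libraries per group this cannot show that they are unpaired. With the letter as a replicate block the cytosolic counts were 3 for the mean of the constructs and 5 with sh1, the mitochondrial count with sh3 was 1, CARS, DARS and WARS were no longer called for the mean of the constructs (adjusted p = 0.062, 0.060 and 0.053), and 1292 genes in place of 1768 were called over the whole table. With each library left out in turn, the cytosolic count ranged from 1 to 6 for the mean of the constructs, 1 to 8 with sh1, 0 to 2 with sh3 and 5 to 9 between constructs. The mitochondrial count ranged from 0 to 2 for the mean of the constructs, 1 to 3 with sh3 and 1 to 2 between constructs. The cytosolic median ranged from -0.12 to -0.070 and the mitochondrial one from -0.0042 to 0.040. Leaving out a control leaves that arm with 1 library, assumed to vary like the other groups. The cause of these changes was not tested. Low values limit VARS2.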
